A study of Mus musculus with 6 samples.

Results

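Notch signalling in the aortic vessel wall of mice without miRNA-26b was examined through 10 genes: the receptors *Notch1*, *Notch2*, *Notch3* and *Notch4*, the ligands *Jag1*, *Jag2* and *Dll4*, and the targets *Hey1*, *Hey2* and *Heyl*. The genes were chosen by name, and each is 1 of the 55341 genes of the count table. All 10 were tested, as were 16017 genes in all that exceeded 1 CPM (counts per 1000000 assigned counts) in 2 or more libraries and had a total of 2 counts or more. The RNA came from the aortic arch and thoracic aorta of 8-week-old mice on normal chow, 3 miRNA-26b-/- and 3 miRNA-26b+/+, with 1 library per mouse. The labels give the strain C57BL/6NCrl for both genotypes. The deletion was made in R1/E (129/Sv) stem cells whose chimaeras were crossed to C57Bl/6NCrl mice. The floxed miRNA was removed with tamoxifen and CreERT2, whose promoter is not given in the sources used here, and the CreERT2 transgene was then bred out. The labels call the material endothelial cells of the aorta, whereas the methods describe the explanted vessel. The smooth muscle genes *Acta2* and *Myh11* reached 14190 to 18294 CPM and 7729 to 12106 CPM, against 174.2 to 715.6 CPM for the endothelial gene *Pecam1*, so both smooth muscle genes exceeded *Pecam1* in every library.

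Notch receptors are single-pass membrane proteins that are activated by Jagged or Delta-like ligands on a neighbouring cell. Binding leads to cleavage by ADAM proteases and then by gamma-secretase, and the released intracellular part joins the DNA-binding protein RBPJ and Mastermind-like co-activators in the nucleus. Among the genes then transcribed are those of the HES and HEY repressor families. In arteries, NOTCH3 is known as the receptor of smooth muscle, NOTCH1 and NOTCH4 as receptors of endothelium, and DLL4 and JAG1 as ligands on endothelium, JAG1 also on smooth muscle.

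The deleted miRNA recognises messengers chiefly through its seed, bases 2 to 8 from the 5′ end. The sequence of miR-26b-5p is shown beside that of its relative miR-26a-5p, which these mice still carry, because both have the same seed, UCAAGUA (RefSeq, GRCm38.p6, seed in capitals). miR-26b-5p lies at chr1:74394324-74394344 and miR-26a-5p, in its copy on chromosome 9, at chr9:119031811-119031832, both on the plus strand.
mmu-miR-26b-5p: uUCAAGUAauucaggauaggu
mmu-miR-26a-5p: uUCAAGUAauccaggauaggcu

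The 3′ UTRs of the genes were searched for the reverse complement of this seed, in the longest annotated 3′ UTR and on the strand of the gene. The letters were TACTTGAA (8mer), TACTTGA (7mer-m8) and ACTTGAA (7mer-A1), and a 7mer within an 8mer was not counted again. Of 21020 genes, 4.19% held an 8mer and 18.3% held any of these. *Jag1* alone of the 10 genes held an 8mer, and 4 of 10 held a match of any kind, namely *Jag1*, *Notch1*, *Notch2* and *Hey2*. A match of letters is not a measured site. No match of these kinds was found in *Notch3*, *Notch4*, *Jag2*, *Dll4*, *Hey1* or *Heyl*. Matches to the seed of miR-26b-3p were not searched for. The matches are printed in capitals with 9 bases on either side, as DNA in the direction of the transcript (GRCm38). The capitals of the *Jag1* 8mer lie at chr2:137081724-137081731 and those of its 7mer-A1 at chr2:137081994-137082000, both on the minus strand. Those of *Notch1* lie at chr2:26458913-26458919 (minus strand), of *Notch2* at chr3:98149993-98149999 (plus strand) and of *Hey2* at chr10:30833520-30833526 (minus strand).
Jag1 8mer: ctagttgaaTACTTGAAccgtaaaat
Jag1 7mer-A1: ctgctttagACTTGAAaagagacag
Notch1 7mer-A1: ccagtgtggACTTGAAgaagtgtcc
Notch2 7mer-A1: aacttggccACTTGAAgtcttgcat
Hey2 7mer-A1: acatcagcaACTTGAAagcagcaca

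The libraries held 25706728 to 33345037 assigned counts, and a pair of them stood apart. The endothelial list of 10 markers (*Pecam1*, *Cdh5*, *Tie1*, *Tek*, *Kdr*, *Erg*, *Vwf*, *Egfl7*, *Esam* and *Cldn5*) summed to 578.1 CPM in M2626 and 590 CPM in M2627. It summed to 1861 CPM in M2628, the remaining miRNA-26b-/- library, and to 1308, 1771 and 1567 CPM in M2629, M2630 and M2631, the libraries of miRNA-26b+/+ mice. Of the 10 markers, 8 had a lower fitted level in miRNA-26b-/-, 1 of them (*Tek*) with an unadjusted p under 0.05, and none was at 0. In M2626 and M2627, *Pecam1* (184.3 and 174.2 CPM) and *Vwf* (103.1 and 107 CPM) were below miRNA-26b+/+ (487.3 to 630.5 and 389.2 to 601.3 CPM). Both had the highest levels of the list and weigh most in its sum. *Esam* and *Kdr* lay within the miRNA-26b+/+ range in both libraries, *Erg* and *Egfl7* in M2626, and *Cldn5* in M2627. The sum of the macrophage markers (*Csf1r*, *Adgre1*, *C1qa*, *Cd68* and *Mrc1*) was also low in M2626 and M2627, at 111.1 and 155 CPM. It was 394.8 CPM in M2628 and 230.7 to 273.9 CPM in miRNA-26b+/+. *Cd68* was an exception in M2626, where its 8.86 CPM lay within the miRNA-26b+/+ range of 4.83 to 10.4 CPM. With 26.7 CPM in M2628, its fitted log2 fold change was 0.72 (SE 0.581). The 8 smooth muscle markers summed to 32472 to 40787 CPM in miRNA-26b-/- and 35514 to 43541 CPM in miRNA-26b+/+, ranges that overlapped. One of the 8, *Myocd*, the co-activator that drives smooth muscle genes, was lower without overlap, at 72.8 to 142 CPM against 184.5 to 210.5 CPM. It is part of the mean log2 level of this list, which is used as a reference below. Markers of Schwann cells were higher in miRNA-26b-/-, 108.4 to 225.1 CPM against 15.2 to 68.3 CPM. Of the skeletal muscle list, *Mylpf* and *Myh4* were at 0 in every miRNA-26b+/+ library. Like *Tnnt3*, they passed the filter on low counts through the knockout libraries alone, so they give no comparison of the genotypes. The remaining gene, *Acta1*, was at 9.56, 25.3 and 0.319 CPM in M2626, M2627 and M2628. It overlapped with miRNA-26b+/+, at 0.655 to 3.26 CPM. In bulk RNA, fewer cells of a type and less RNA per cell cannot be told apart. Of all 16017 genes, 6.47% had an unadjusted p under 0.05 in edgeR's quasi-likelihood test of the genotypes, 3.40% higher and 3.07% lower in miRNA-26b-/-, and 1 gene, or 0.00624%, had a Benjamini-Hochberg adjusted p under 0.05. For 11.5% of genes the CPM of the genotypes did not overlap. With 3 against 3 mice, the smallest two-sided p of an exact permutation test is 0.1.

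None of the 10 Notch genes passed the test of the genotypes after adjustment for all genes tested. In edgeR's test 0 of 10 had an adjusted p under 0.05, and the same count came from DESeq2, limma voom and the likelihood ratio test; each of these tools gave 1 of 10 at an unadjusted p under 0.05. *Heyl* was the only gene of the 10 with an unadjusted p under 0.05, beside 6.47% of all genes, and the only one with no overlap, beside 11.5% of all genes. Both counts are near their background. Of the 10, 4 had a higher and 6 a lower fitted level in miRNA-26b-/-, and the median log2 fold change was -0.04, against 0.01 over all genes tested. The 4 receptors were all on the lower side, with a median of -0.21, while 51.4% of all genes tested were on the higher side. For *Notch2* (-0.05, SE 0.143) and *Notch3* (-0.03, SE 0.16) the value was smaller than its SE. Each changed sign with a single library left out.

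**Figure D1:**
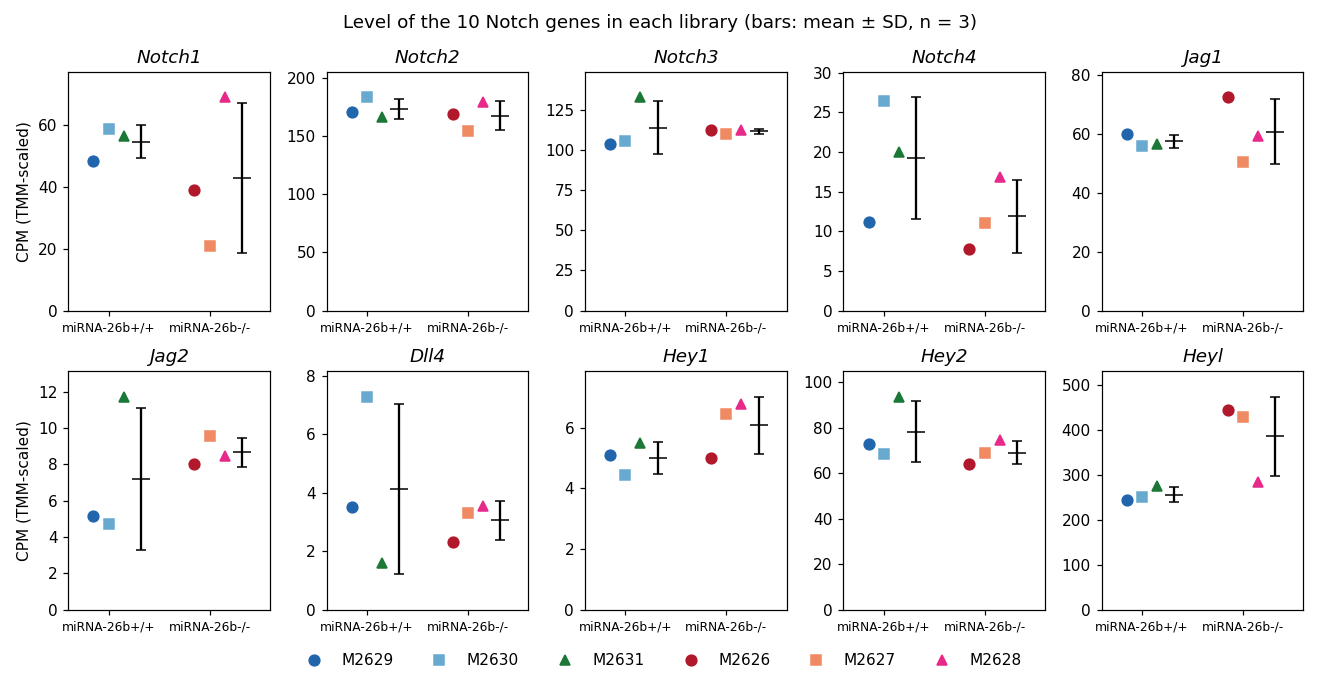
CPM scaled by TMM factors (vertical axes from 0, one scale per gene) of each of the 10 genes for 3 miRNA-26b+/+ and 3 miRNA-26b-/- mice; each symbol is 1 mouse and bars are mean ± SD, n = 3. *Heyl* is the only gene whose genotypes do not overlap, with M2626 at 443.4 and M2627 at 429.1 CPM, and *Notch1* has its 2 lowest values in the same pair of libraries.

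Levels between genes were compared as CPM divided by the exon length in kilobases (RPKM). *Heyl* was the most abundant of the 10, with a mean of 62.7 RPKM over 6 libraries, and it was above *Hey2* in 6 of 6 libraries, by a ratio of means of 3.91. *Hey2* (16.04 RPKM), *Notch2* (15.8 RPKM) and *Notch3* (13.9 RPKM) followed. *Hey2* was above *Notch3* in 6 of 6 libraries, but the place of *Notch2* was not fixed: *Hey2* was above it in 2 of 6 libraries, and it was above *Notch3* in 5 of 6. *Jag1* came next with 10.1 RPKM and was below *Notch3* and above *Notch1* in every library. *Notch1* was at 3.42 RPKM and *Notch4* at 1.93 RPKM, in that order in 6 of 6 libraries. At the low end, *Notch4* was above *Hey1* (1.70 RPKM) in 3 of 6 libraries, *Hey1* above *Jag2* (1.14 RPKM) in 5 of 6, and *Jag2* above *Dll4* (0.932 RPKM) in 4 of 6, so these neighbours did not differ beyond their spread. The receptor and ligand with the highest levels in this tissue were thus *Notch2*, close to *Notch3*, and *Jag1*, and the levels of *Heyl* and *Hey1*, 2 targets of one family, were far apart.

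**Figure D2:**
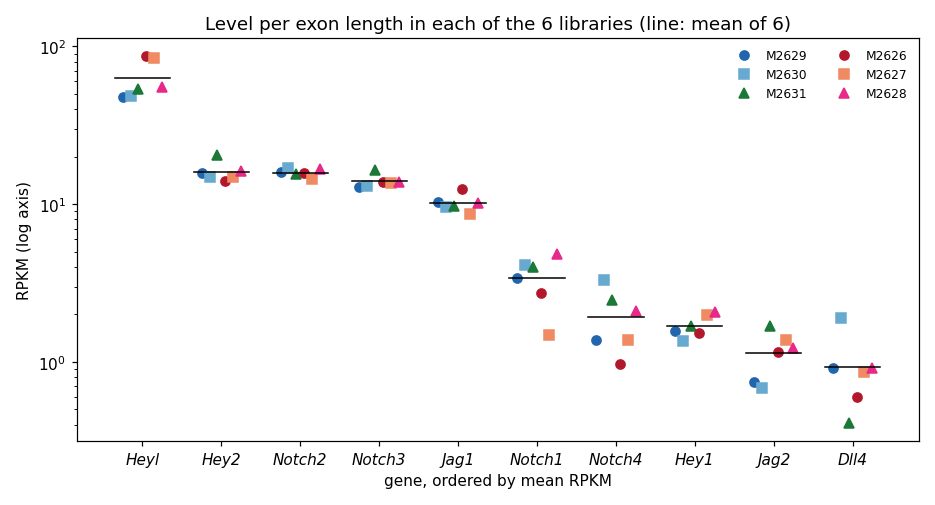
RPKM (log axis) of each gene in the 6 libraries, genes ordered by their mean, which is the horizontal line. *Heyl* lies above every other gene in every library, the points of *Hey2*, *Notch2* and *Notch3* share the range from 12.8 to 20.4 RPKM, and the 4 genes at the right end interleave below 3.3 RPKM.

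*Notch3*, the receptor of arterial smooth muscle, lies on chromosome 17 (chr17:32120820-32166852, minus strand, GRCm38). It was at 112.1, 109.8 and 112.3 CPM in M2626, M2627 and M2628, the knockout libraries. In miRNA-26b+/+ it was at 103.8, 105.2 and 132.5 CPM in M2629, M2630 and M2631. The knockout libraries were within 3 CPM of each other and inside the range of the wild type, whose highest value came from M2631. The means were 111.4 ± 1.41 and 113.8 ± 16.2 CPM (SD, n = 3 each; exact permutation test, two-sided, p = 1), and the log2 fold change was -0.03 (SE 0.16, edgeR adjusted p = 0.991, 95% interval -0.37 to 0.31). Of the exon bases of *Notch3*, 6% are shared with *Gm17276* on the other strand, and counting did not use strand.

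*Notch2* (chr3:98013527-98150361, plus strand), a receptor of smooth muscle and of macrophages among other cells, was similarly even. Its CPM were 169.4, 154.6 and 179.5 in miRNA-26b-/- (M2626, M2627, M2628). They were 171.2, 183.6 and 166.7 in miRNA-26b+/+ (M2629, M2630, M2631). The ranges overlapped, and M2627 was the lowest library. Its log2 fold change was -0.05 (SE 0.143, edgeR adjusted p = 0.984, 95% interval -0.36 to 0.25), the narrowest interval of the 10 genes. *Notch2* is one of the genes with a 7mer-A1 match shown above.

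*Notch1* (chr2:26457903-26516663, minus strand), the receptor needed for arterial identity of endothelium, varied widely between the knockout mice. It was at 38.8 CPM in M2626, 21 CPM in M2627 and 68.9 CPM in M2628, all miRNA-26b-/-. The miRNA-26b+/+ libraries had 48.5, 58.6 and 56.6 CPM. The knockout thus held both the lowest and the highest of the 6 values. The means were 42.9 ± 24.2 and 54.6 ± 5.35 CPM (SD, n = 3 each; exact permutation test, two-sided, p = 0.6), and the log2 fold change was -0.36 (SE 0.311, edgeR adjusted p = 0.897, 95% interval -1.03 to 0.30). M2627 weighed most on it: without M2627 the log2 fold change was -0.0084, and without M2626 it was -0.31. Without M2628 it was -0.90 (adjusted p = 0.174), and with M2628 as the only miRNA-26b-/- library it was 0.33 (adjusted p = 0.686). The endothelial list had a low sum in M2626 and M2627, though not every marker was low there. The part of these markers in the result was not tested. Of its exon bases, 9.8% are shared with *0610009E02Rik* and *Gm13568*.

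*Notch4* (chr17:34564268-34588503, plus strand), a receptor made almost only by endothelium, had 7.77, 11 and 16.8 CPM in M2626, M2627 and M2628. It had 11.1, 26.5 and 19.9 CPM in M2629, M2630 and M2631. The miRNA-26b+/+ library M2629 lay within the knockout range, so the groups overlapped. Between the genotypes the log2 fold change was the lowest of the 4 receptors, -0.67 (SE 0.386, edgeR adjusted p = 0.81, 95% interval -1.49 to 0.15; exact permutation test over n = 3 and 3, two-sided, p = 0.2). Leaving out single libraries moved it between -0.37, without M2630, and -0.99, without M2628 (unadjusted p = 0.0322, edgeR adjusted p = 0.402); without M2629 it was -0.95 (unadjusted p = 0.0298, adjusted p = 0.872). Without M2626 and M2627 it was -0.18. The endothelial list had a low sum in M2626 and M2627 but not in M2629, where *Notch4* was about as low as in M2627. The part of these markers in the result was not tested.

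The receptors were also set against the mean log2 level of marker lists in the same library, a comparison chosen after the values were seen. Relative to the 10 endothelial markers, *Notch1* was -0.16, -1.14 and -0.33 on this log2 scale in M2626, M2627 and M2628, and -0.64, -0.67 and -0.52 in M2629, M2630 and M2631. The groups overlapped and their means differed by 0.07 (exact permutation test over n = 3 and 3, two-sided, p = 0.9). *Notch4* gave a difference of -0.10 (exact permutation p = 0.8). Relative to the smooth muscle markers the differences were -0.33 for *Notch1* (exact permutation p = 0.7) and -0.49 for *Notch4* (exact permutation p = 0.5), and the groups overlapped in each of these comparisons. *Notch3* against the smooth muscle markers gave 0.16 (exact permutation p = 0.2). These markers include *Myocd*, whose lower level in miRNA-26b-/- lowers the reference there.

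**Figure D3:**
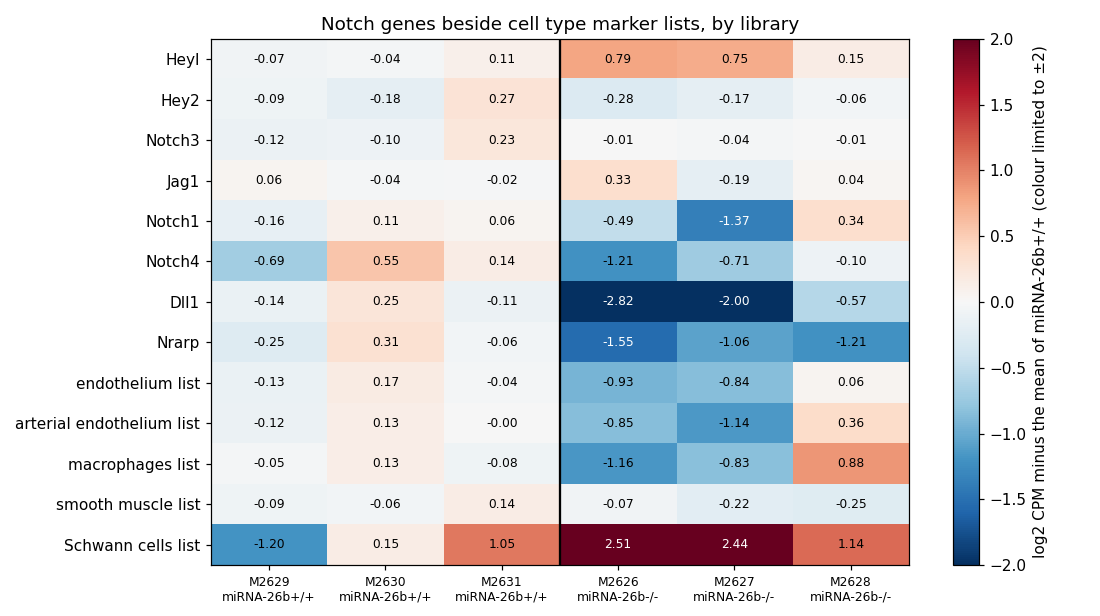
log2 CPM minus the mean of the 3 miRNA-26b+/+ libraries (colour and printed value, colour limited to ±2), by library, for 8 Notch pathway genes and the mean of 5 cell type marker lists. In M2626 and M2627 the endothelial list (-0.93 and -0.84), the macrophage list (-1.16 and -0.83), *Notch1*, *Notch4* and *Dll1* are low and *Heyl* is high (0.79 and 0.75), while M2628 has an endothelial list near the wild type (0.06) and *Heyl* at 0.15.

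*Jag1* (chr2:137081456-137116644, minus strand), the Jagged ligand that endothelium and smooth muscle present to their neighbours, is the one gene of the 10 with an 8mer to the miR-26b-5p seed. Its CPM were 72.4 in M2626, 50.5 in M2627 and 59.1 in M2628. In M2629, M2630 and M2631 they were 60, 55.9 and 56.6. The miRNA-26b-/- libraries lay on both sides of the narrow wild-type range. The means were 60.7 ± 11 and 57.5 ± 2.2 CPM (SD, n = 3 each; exact permutation test, two-sided, p = 0.8). In the fit, the log2 fold change was 0.07 (SE 0.192, edgeR adjusted p = 0.985, 95% interval -0.34 to 0.48) and became -0.08 without M2626. A difference in *Jag1* RNA was thus not detectable with 3 mice a group, while the interval holds values up to 0.48 on the log2 scale.

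*Jag2* (chr12:112907819-112929776, minus strand), the second Jagged ligand, was rare, at 8, 9.55 and 8.46 CPM in M2626, M2627 and M2628. The miRNA-26b+/+ libraries had 5.18, 4.73 and 11.7 CPM. M2631 was above and the other miRNA-26b+/+ libraries were below all 3 knockout libraries. The log2 fold change was 0.26 (SE 0.46, edgeR adjusted p = 0.961, 95% interval -0.72 to 1.25). It was 0.81 without M2631, 0.056 without M2630 and 0.062 without M2629.

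*Dll4* (chr2:119325784-119335962, plus strand), the Delta-like ligand of arterial endothelium, was the least abundant of the 10 per exon length. It had 2.3, 3.3 and 3.54 CPM in the miRNA-26b-/- libraries and 3.52, 7.28 and 1.59 CPM in the miRNA-26b+/+ libraries. The wild type held the highest (M2630) and the lowest (M2631) value. Its log2 fold change was -0.39 (SE 0.674, edgeR adjusted p = 0.961, 95% interval -1.83 to 1.05) and became 0.27 without M2630. An interval this wide holds both a lower and a higher level by more than 2-fold. Of the exon bases of *Dll4*, 5.6% are shared with *Gm14207*, which had 87 counts in M2630 and 0 in M2626, M2629 and M2631.

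*Heyl* (chr4:123233556-123249875, plus strand), a HEY-family repressor found in smooth muscle downstream of NOTCH3, was the gene with the most distinct levels. It was at 443.4 CPM in M2626, 429.1 CPM in M2627 and 283.4 CPM in M2628. In miRNA-26b+/+, M2629, M2630 and M2631 had 243.2, 249.6 and 275.4 CPM. All 3 knockout libraries were above all 3 wild-type libraries, by a wide gap for M2626 and M2627 and a narrow one for M2628. The means were 385.3 ± 88.5 and 256.1 ± 17.1 CPM (SD, n = 3 each; exact permutation test, two-sided, p = 0.1, the smallest possible). Between the genotypes the log2 fold change was 0.59 (SE 0.168, 95% interval 0.23 to 0.95), with an unadjusted p of 0.00321 in edgeR's test, rank 66 among 16017 genes, and an adjusted p = 0.731. No exon base of *Heyl* is shared with another gene of the annotation.

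How large the difference in *Heyl* was depended on which knockout libraries were used. Without M2628 it was 0.77 (adjusted p = 0.0152), the only setting tried in which one of the 10 genes had an adjusted p under 0.05. With M2628 as the only miRNA-26b-/- library it was 0.14 (adjusted p = 0.838). The high values thus came from M2626 and M2627, the libraries with low sums of the endothelial and macrophage lists. In the same libraries the smooth muscle list was at -0.07 and -0.22 relative to the wild-type mean (log2), against 0.79 and 0.75 for *Heyl*. Set against the smooth muscle markers of the same library, *Heyl* was at -2.24, -2.14 and -2.71 in miRNA-26b-/- and at -3.09, -3.08 and -3.14 in miRNA-26b+/+, a difference of 0.74 with no overlap (log2 scale, exact permutation test over n = 3 and 3, two-sided, p = 0.1; comparison chosen after the values were seen). The smooth muscle markers include *Myocd*, whose lower level in miRNA-26b-/- lowers this reference there. The difference without *Myocd* was not computed. Relative to the endothelial markers, *Heyl* differed by 1.14, but the groups overlapped, with M2628 at 1.71 and M2631 at 1.76 (exact permutation p = 0.2). The Schwann cell list and *Acta1* of the skeletal muscle list were also highest in M2626 and M2627. Their part in the result was not tested.

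*Hey2* (chr10:30832359-30842801, minus strand), the HEY repressor known from arterial endothelium and smooth muscle, did not follow *Heyl*. It had 64, 68.7 and 74.5 CPM in M2626, M2627 and M2628. It had 72.8, 68.3 and 93.6 CPM in M2629, M2630 and M2631. The ranges overlapped, with M2631 the highest. In the fit, the log2 fold change was -0.18 (SE 0.183, edgeR adjusted p = 0.929, 95% interval -0.57 to 0.21), and relative to the smooth muscle markers the difference was 0.01 (exact permutation p = 1).

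*Hey1* (chr3:8663359-8667256, minus strand), the third HEY repressor, was low at 5, 6.46 and 6.76 CPM in M2626, M2627 and M2628. In miRNA-26b+/+ it was at 5.09, 4.44 and 5.49 CPM. M2626 fell inside the wild-type range and the other two knockout libraries above it. The log2 fold change was 0.29 (SE 0.489, edgeR adjusted p = 0.96, 95% interval -0.76 to 1.33). Of the HEY targets, only *Heyl* therefore had an interval on one side of 0; whether the fold changes of the 3 differ from each other was not tested.

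The intracellular part of Notch reaches DNA through RBPJ, which binds TGGGAA. These letters (TTCCCA on the other strand, both strands searched) were looked for in the 250 bases before the start of each gene, and 21.6% of 32851 RefSeq promoters held them. Promoter sequences were at hand for 8 of the 10 genes, *Hey1* and *Heyl* not among them, and *Hey2* was the 1 of the 8 with a match, within the longer GTGGGAA that 5.42% of promoters held. The stretch is shown as the only HEY promoter at hand (RefSeq, GRCm38.p6, chr10:30842934-30843033, minus strand, printed along the gene, 250 to 151 bases before its start), with the match in capitals 207 bases before the start.
Hey2 promoter: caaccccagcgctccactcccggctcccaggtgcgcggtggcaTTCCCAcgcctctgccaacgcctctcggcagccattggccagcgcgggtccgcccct

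**Figure D4:**
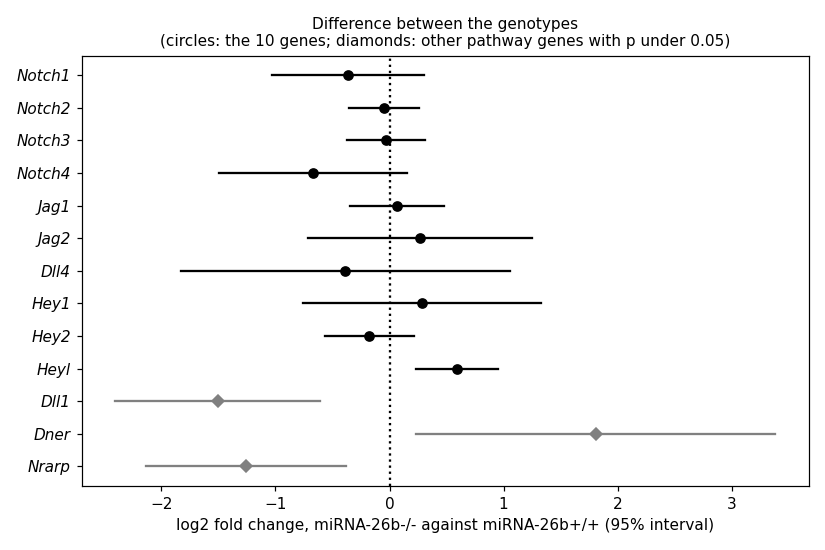
log2 fold change of miRNA-26b-/- against miRNA-26b+/+ with its 95% interval (horizontal axis) for the 10 genes (circles) and the 3 other pathway genes with an unadjusted p under 0.05 (diamonds). The interval of *Heyl* (0.23 to 0.95) is the only one of the 10 that does not include 0, and *Dll4* has the widest of the 10.

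Around these genes, 49 further genes of the pathway were listed by role, of which 44 passed the filter and *Dll3*, *Dlk1*, *Dlk2*, *Hes5* and *Hes7* did not. In miRNA-26b-/-, 20 were on the higher and 24 on the lower side, with a median log2 fold change of -0.07. In edgeR's test, 3 of 44 had an unadjusted p under 0.05, *Dll1* and *Nrarp* lower and *Dner* higher, beside 6.47% of all genes, and 0 had an adjusted p under 0.05, as with DESeq2, limma voom and the likelihood ratio test. The genotypes did not overlap for 5 of 44, *Dll1*, *Nrarp*, *Pofut1*, *Aph1a* and *Crebbp*, beside 11.5% of all genes; the last 3 are named because of this count, after their values were seen.

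*Dll1* (chr17:15367354-15376872, minus strand), a Delta-like ligand of arterial endothelium, had 3.04, 5.45 and 14.7 CPM in M2626, M2627 and M2628. The miRNA-26b+/+ libraries had 19.9, 26.1 and 20.3 CPM. All knockout libraries were below all wild-type libraries, M2628 least so. Its log2 fold change was -1.51 (SE 0.422, unadjusted p = 0.00286 and adjusted p = 0.731 in edgeR's test; 95% interval -2.41 to -0.61). Without M2628 it was -2.32 (adjusted p = 0.0205), and with M2628 alone -0.58 (adjusted p = 0.672). Relative to the endothelial markers it was at -3.81, -3.07 and -2.55 in the knockout and -1.92, -1.84 and -1.99 in the wild type, a difference of -1.22 with no overlap (log2 scale, exact permutation test over n = 3 and 3, two-sided, p = 0.1). Of its exon bases, 20.5% are shared with *A930024N18Rik*, which had 0 to 39 counts in miRNA-26b-/- and 67 to 125 in miRNA-26b+/+, against 78 to 416 and 612 to 717 for *Dll1*.

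*Nrarp* (chr2:25180758-25183339, plus strand), a target that limits Notch activity by binding the nuclear complex, had 4.41, 6.19 and 5.6 CPM in M2626, M2627 and M2628. It had 10.9, 16.2 and 12.5 CPM in M2629, M2630 and M2631. The groups did not overlap, and here M2628 lay between M2626 and M2627, which it did not for *Dll1*, *Notch1* and *Heyl*. Between the genotypes the log2 fold change was -1.26 (SE 0.411, unadjusted p = 0.00796 and adjusted p = 0.736 in edgeR's test). With M2628 alone it was -1.23. As 79.4% of its exon bases are shared with *Gm38287* on the other strand, the reads of the pair cannot be told apart.

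*Dner*, a non-canonical ligand known from neurons, was rare and uneven, at 2.77, 10.6 and 6.69 CPM in miRNA-26b-/- and 1.11, 4.55 and 0.562 CPM in miRNA-26b+/+. The groups overlapped through M2626 and M2630. In the fit, the log2 fold change was 1.81 (SE 0.739, unadjusted p = 0.0271 and adjusted p = 0.736 in edgeR's test). The unadjusted p was 0.0601 with DESeq2, 0.0608 with limma voom and 0.0697 with the likelihood ratio test. Without M2627, M2629 or M2631 it was 0.155, 0.105 or 0.112 in edgeR's test, and the log2 fold change moved between 1.27, without M2627, and 3.06, without M2630. The sympathetic neuron markers, which sum to 212.5 CPM in M2627 and 47.8 CPM in M2630 and to at most 21.9 CPM elsewhere, were highest in the library of each genotype where *Dner* was highest. The other libraries did not keep this order. M2628, with *Dner* at 6.69 CPM, had a sum of 7.97 CPM, and M2631, with the lowest *Dner*, had 21.9 CPM. The part of these markers in the result was not tested. *Dner* also lies on chromosome 1, 9.98 Mb from the miRNA-26b hairpin. Whether this position has a part in the result was not tested.

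Among the genes that handle receptors and ligands or form the nuclear complex, none had an unadjusted p under 0.05. Of the 5 glycosyltransferases that prime receptors for their ligands, 5 of 5 were on the lower side; *Poglut1*, the most abundant, was at 75.1 ± 5.38 and 85.1 ± 17.9 CPM in miRNA-26b-/- and miRNA-26b+/+ (SD, n = 3 each). Of the 10 receptor cleavage genes 6 were on the lower side, with *Adam10*, the sheddase that makes the first cut after ligand binding, at 101.1 ± 19 and 106.3 ± 18.9 CPM. Of the 4 ligand endocytosis genes 3 were on the higher side, with the ubiquitin ligase *Mib1* at 130.9 ± 29.8 and 129.3 ± 16.7 CPM. These 3 leading genes had log2 fold changes of -0.18, -0.07 and 0.02, each smaller than its SE of 0.186, 0.188 and 0.183. Of the 8 genes of receptor trafficking and turnover 5 were on the higher side, and of the 10 of the nuclear complex 4. Of the 5 other targets tested, *Efnb2*, the arterial ephrin, was the most abundant at 18.1 RPKM and had a log2 fold change of 0.23 (SE 0.188, edgeR adjusted p = 0.888). *Dtx3*, the most abundant of the trafficking genes, had 0.13 (SE 0.284, edgeR adjusted p = 0.973).

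**Figure D5:**
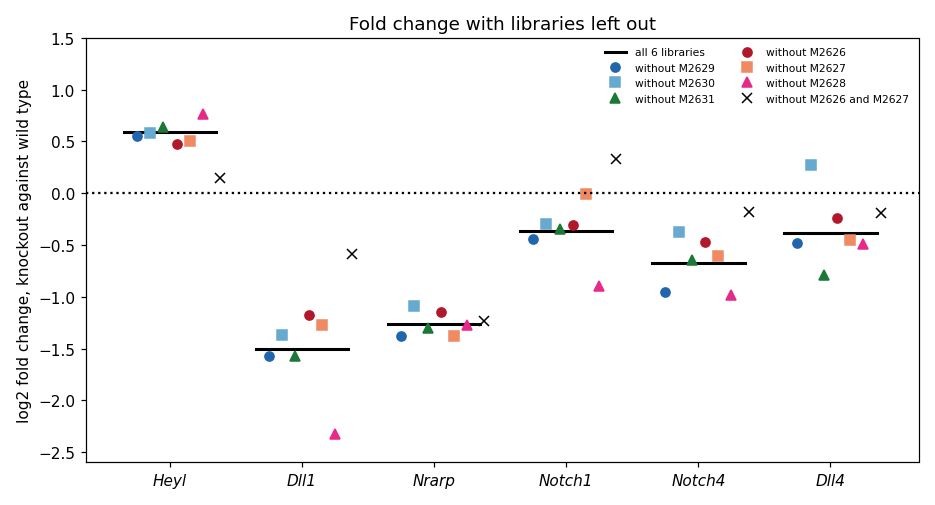
log2 fold change of miRNA-26b-/- against miRNA-26b+/+ for 6 genes with all 6 libraries (black line), with each library left out in turn (coloured symbols) and without M2626 and M2627 (cross). *Heyl* stays above 0 and *Dll1*, *Nrarp* and *Notch4* stay below 0 in each of these settings, while *Notch1* (0.33, cross) and *Dll4* (0.27, without M2630) do not keep their sign.

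For a receptor and a ligand of each kind, the genes with the most similar course over the 6 libraries were looked up among those with a mean of at least 5 CPM (11675 other genes for *Notch3* and *Jag1*, 11676 for *Dll4*). For *Notch3* they were *Atp9b* (Pearson r of log2 CPM 0.994), *Ercc3* (0.993) and *Smyd5* (0.991), and for *Jag1* *Zfp248* (0.996), *Srfbp1* (0.978) and *Fhod3* (0.972). For *Dll4* they were *Amz1* (0.991), *AC161119.1* (0.975) and *Ak3* (0.973). These are the highest values among all genes compared, over 6 points that share library and depth, and are given as a description. Of the marker lists, the highest r was that of smooth muscle for *Notch3* (0.639), pericytes for *Jag1* (0.217) and adipocytes for *Dll4* (0.622). Each is the highest value among all marker lists over 6 libraries and is likewise a description. The value for *Jag1* is low, so *Jag1* followed none of the lists closely.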

How the data were processed

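RNA of 6 mouse aortas was sequenced on Illumina TruSeq libraries. The counts deposited by the authors are raw, made with STAR (mm10; version not given in the sources used here) and featureCounts 1.6.4 over GENCODE M21 exons, unstranded, with a read over several genes counted for each. They also deposited log2 CPM values, used here for an alternative only, and their own fold changes and p-values, which were not used. From the counts, TMM factors, CPM, RPKM (exon length of the count table) and the quasi-likelihood test of edgeR 4.0.16 (R 4.3.3, prior count 0.125, Benjamini-Hochberg over 16017 genes) were computed. The SE is the fold change divided by the square root of F. The procedure was tested on simulated data. DESeq2 1.42.0 and limma 3.58.1 served as alternatives.

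The genes and lists were chosen with earlier results of these data known. Named are the 10 genes, the pathway genes with an unadjusted p under 0.05, the most abundant of each role (1 of them not reported here) and the markers needed beside them. Levels relative to markers and the fit without M2626 and M2627 were added after seeing the data. Replicates are separate mice; intervals cover the spread between them, and no interval was computed from counts alone.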

Additional observations from a re-analysis of the deposited data

How the results depend on the processing

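With DESeq2, limma voom, the likelihood ratio test and the earlier quasi-likelihood method, 57, 3, 19 and 0 of all genes had an adjusted p under 0.05 in place of 1, and 0 to 82 when each library was left out, with 686 to 1692 genes at an unadjusted p under 0.05. Leaving out each library gave 1 to 3 of the 10 Notch genes (2 without M2629) and 3 to 7 of the listed pathway genes at an unadjusted p under 0.05, and 0 to 1 of either at an adjusted p under 0.05; the highest of each came without M2628, when *Heyl* and *Dll1* passed. Without M2626 and M2627, 0 of the 10 genes had an unadjusted p under 0.05; the lone knockout library is then assumed to vary like the wild type. Over all alternatives the adjusted p ranged from 0.0152 to 0.984 for *Heyl* and from 0.0205 to 0.984 for *Dll1*. Of the alternative values for single genes, 345 kept their sign and 16 turned, all with libraries left out: for *Notch1* (0.33), *Notch2* (0.042), *Adam10* (0.19) and *Dtx3* (-0.32) without M2626 and M2627; for *Jag1* (-0.076) and *Dtx3* (-0.0016) without M2626; for *Notch2* (0.0057) and *Adam10* (0.053) without M2627; for *Mib1* (-0.15) without M2628; for *Poglut1* (0.0043) and *Dtx3* (-0.068) without M2629; for *Dll4* (0.27), *Adam10* (0.080) and *Mib1* (-0.034) without M2630; and for *Notch3* (0.084) and *Mib1* (-0.035) without M2631. The cause was not tested. No paired analysis was possible because the labels number no mice and the deposited column names give 2 knockout libraries the same number, which leaves only 1 number that the genotypes share without ambiguity. The intervals of *Notch1*, *Notch4*, *Jag2*, *Dll4* and *Hey1* reach 1 in size on the log2 scale, so differences of that size were not excluded for them.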
